A study of Mus musculus with 18 samples.

Results

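The ABC transporter family of mouse liver was followed here as 45 protein-coding genes whose symbols run from Abca to Abcg followed by a number. They were chosen by symbol alone from 50 such genes, after leaving out Abcb11, Abcg5, Abcg8, Abcd2 and Abcd3, and the tables hold 54532 genes in all. Subfamily A has 16 members, B 9, C 10, D 2, E 1, F 3 and G 4. Liver RNA from male wild-type C57BL/6J mice was sequenced in 4 groups. Ctrl (n = 5) received control diet and B2D (n = 5) a diet with 99% of the riboflavin (vitamin B2) removed, from 4 wk of age and for 1 month. Ctrl+FF (n = 4) and B2D+FF (n = 4) received the same diets from the same starting age for 9 wk. Both of these groups were given fenofibrate, a PPARα agonist, daily by gavage at 300 mg/kg from wk 7 to 9, the last dose 2 hr before harvest. All mice were fasted overnight and each library came from a separate sample. The 2 pairs of groups stand in 2 tables that were normalized separately, so fenofibrate, diet time, age at harvest and table change together and cannot be told apart. Levels are set side by side across tables without a test.

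ABC transporters share an ATP-binding cassette, the domain that hydrolyses ATP to move a substrate across a membrane. Members of subfamily A mostly move lipids, and B holds multidrug, phospholipid and mitochondrial transporters. C includes, among other members, the multidrug resistance proteins that export conjugated drugs and bilirubin, and G holds sterol and drug half-transporters. D members sit in peroxisomes or lysosomes, while E and F proteins have the ATPase domains but no membrane domain and act on ribosomes. In hepatocytes, Abcb4 and Abcc2 lie on the bile canalicular side, and Abcc3 and Abcc4 return conjugates to the blood.

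Levels are FPKM (fragments scaled by gene length and an effective library size). This unit corrects for gene length and so allows genes to be compared. The effective size lay above the reads on genes in some libraries and below them in others. Reads on genes ranged from 15320729 to 21898502 per library. Hepatocyte markers were abundant, with group means of Alb from 12138 to 25073 FPKM. In bulk tissue, fewer cells of a type and less RNA per cell cannot be told apart.

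A few transporters made up most of the family's RNA. The 4 most abundant members were Abcc2, Abcb4, Abca6 and Abcc3 in each of the 4 groups, and together they held 56.3% of the summed family FPKM in Ctrl, 59.2% in B2D, 59.7% in Ctrl+FF and 61.5% in B2D+FF. Summed over the 45 members, the family stood at 400.0 FPKM ± 36.1 (SD, n = 5) in Ctrl against 425 ± 49.5 (n = 5) in B2D, ranges that overlapped. It stood at 421 ± 24.5 (n = 4) in Ctrl+FF and 438 ± 64.1 (n = 4) in B2D+FF, which overlapped too. At the other end, 17 members were below a mean of 0.5 FPKM in both tables and entered no test, and none of them exceeded 0.697 FPKM in any library. Of these, Abca12, Abca13, Abca15, Abca16, Abca17, Abcb5 and Abcc8 had 0 reads in all 18 libraries, which allows up to 3 reads in each. The remaining 10 were Abca4, Abca9, Abca14, Abcb1b, Abcb6, Abcc1, Abcc5, Abcc12, Abcg3 and Abcg4. Of the 5679 50-base stretches of the Abcb6 transcripts, 2840 also occur in Gm29253, so the low level of Abcb6 is uncertain. A total of 26 members passed the filter without fenofibrate, and the same 26 with Abcb9 and Abcc4 passed it with fenofibrate.

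**Figure D1:**
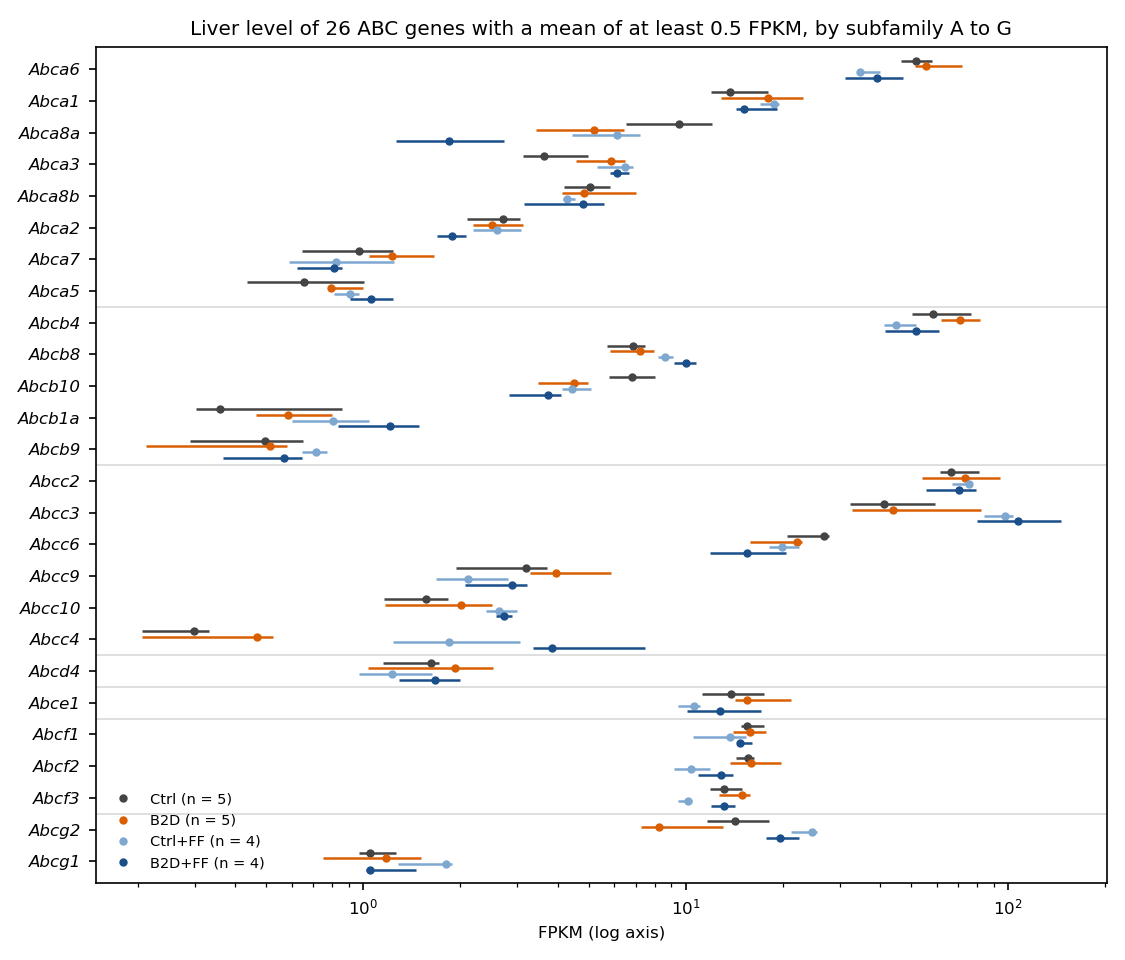
FPKM on a log axis for 26 of the 28 members tested with fenofibrate, ordered by subfamily A to G and by mean level; points are group medians and lines run from the lowest to the highest library. Abcc2, Abcb4, Abca6 and Abcc3 lie furthest right, Abca8a separates by diet in both tables, and Abcc4 is at most 0.523 FPKM without fenofibrate and at least 1.23 with it.

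Few members moved with the diet, and the clearest was Abca8a, a subfamily A lipid transporter. Without fenofibrate, 2 of 26 members tested passed the threshold (limma, adjusted p below 0.05), Abca8a and Abcb10, both lower in B2D, beside 1.94% of all genes called lower. No member was called higher, beside 0.769% of all genes, although 3 were higher at an unadjusted p below 0.05, beside 8.24% of all genes, and 3 were lower at that level, beside 10.1%. With fenofibrate, 1 of 28 members, Abca8a, was called lower in B2D+FF, beside 2.21% of all genes, and 1, Abcf3, was called higher, beside 2.24%. At an unadjusted p below 0.05, 5 members were lower, beside 9.93% of all genes, and 4 higher, beside 11.3%. The median difference of the members tested was 0.10 on the log2(FPKM + 1) scale without fenofibrate and 0.07 with it, against -0.00 and 0.01 over all genes tested.

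**Figure D2:**
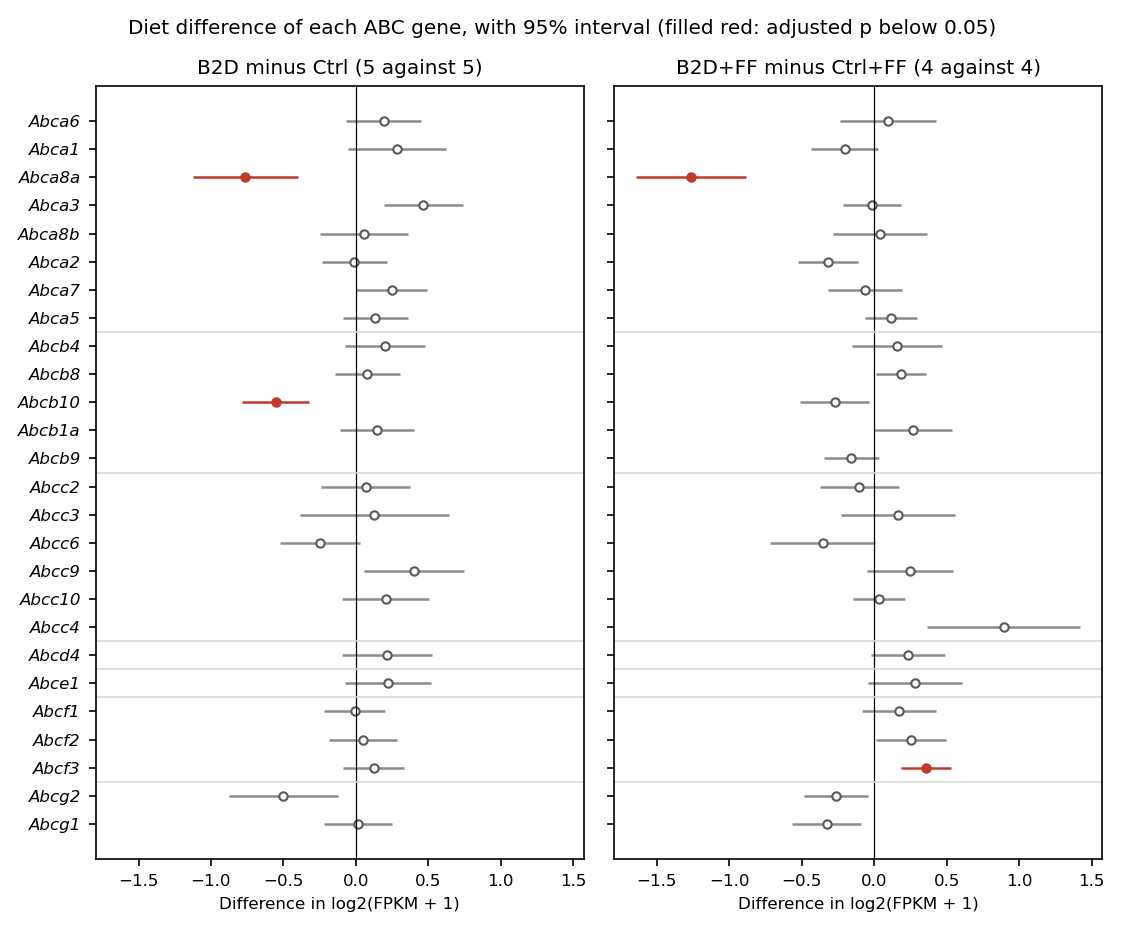
Difference in log2(FPKM + 1) between diets for 26 of the members tested, with its 95% interval from limma; the left panel is B2D minus Ctrl and the right panel B2D+FF minus Ctrl+FF. Filled red points passed an adjusted p of 0.05 and are Abca8a and Abcb10 on the left and Abca8a and Abcf3 on the right.

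Abca8a is 1 of 5 subfamily A genes that follow each other on the minus strand of chromosome 11 (mm10), in the order Abca8b, Abca8a, Abca9, Abca6 and Abca5, and it spans chr11:110025634-110095978. Its level was 10.8, 9.51, 6.52, 12.1 and 9.06 FPKM in the 5 Ctrl libraries and 5.14, 3.44, 5.21, 5.92 and 6.42 in the 5 B2D libraries. Every B2D library lay below every Ctrl library, although the highest B2D and the lowest Ctrl value nearly met and overlapped under upper-quartile or quantile scaling. The mean fell by 45.5%, a log2 difference of -0.76 ± 0.17 (SE, adjusted p = 0.0353). This and all other log2 differences from limma are in log2(FPKM + 1), where the added 1 shrinks differences at low FPKM. With fenofibrate Abca8a was at 6.13, 6.12, 7.18 and 4.42 FPKM in Ctrl+FF, against 1.26, 2.72, 2.04 and 1.65 in B2D+FF. The groups were again apart, and the mean fell by 67.8%, a log2 difference of -1.26 ± 0.17 (SE, adjusted p = 0.00533). The call with fenofibrate held without any 1 of the 8 libraries, the largest adjusted p being 0.0242. The call without fenofibrate was weaker: it held only when Ctrl replicate 3 or B2D replicate 5 was left out, and leaving out any 1 of Ctrl replicates 1, 2, 4 and 5 or B2D replicates 1, 2, 3 and 4 gave adjusted p-values up to 0.0977, as did testing with no filter (0.11). The diet difference did not pass the test of being larger with fenofibrate (log2 difference of differences -0.50, 95% interval -1.03 to 0.03, adjusted p = 0.437).

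Its neighbour and closest relative Abca8b (chr11:109932190-109995845) gave different values. Abca8b was at 4.2, 4.50, 5.17, 5.06 and 5.83 FPKM in Ctrl and 4.13, 4.14, 6.99, 6.26 and 4.82 in B2D, and the groups overlapped (log2 difference 0.06, 95% interval -0.24 to 0.36, adjusted p = 0.857). It was at 4.38, 4.54, 4.15 and 4.21 FPKM in Ctrl+FF, against 3.14, 4.05, 5.53 and 5.57 in B2D+FF (0.04, interval -0.28 to 0.36, adjusted p = 0.905). Abca8a exceeded Abca8b in all 5 Ctrl and all 4 Ctrl+FF libraries, in 2 of 5 B2D libraries and in 0 of 4 B2D+FF libraries. The ratio of Abca8a to Abca8b was 1.98 ± 0.553 (SD, n = 5) in Ctrl against 1.02 ± 0.257 (n = 5) in B2D. Its log2 difference, taken without a pseudocount, was -0.94 (2-sided exact permutation test, p = 0.0159, 0.0286 after adjustment over the pair of tests). The ratio was 1.38 ± 0.277 (SD, n = 4) in Ctrl+FF and 0.435 ± 0.164 (n = 4) in B2D+FF, a log2 difference of -1.71 (exact permutation p = 0.0286, the smallest this design allows). Both ratio tests use the Abca8a values already called above, so they are not separate evidence, and they were run for this pair only. The paralogs share few reads by sequence: 1.64% of the 50-base stretches of the Abca8a transcripts also occur in those of Abca8b, and 1.42% the other way.

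**Figure D3:**
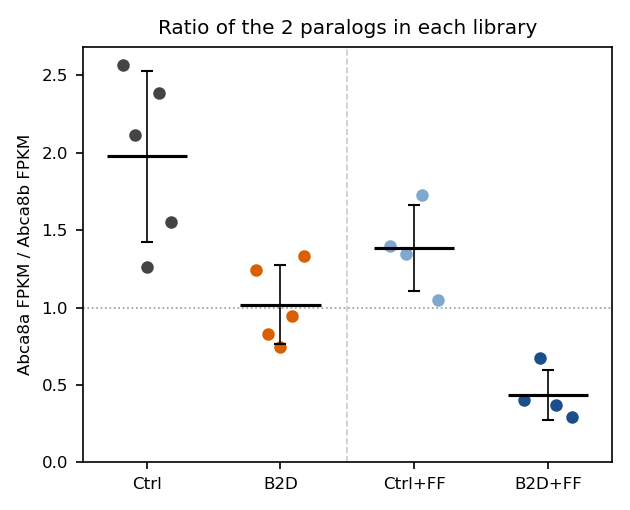
Ratio of Abca8a FPKM to Abca8b FPKM in each library, with group mean and SD; the dotted line marks a ratio of 1 and the dashed line parts the tables. All Ctrl and Ctrl+FF libraries lie above 1 and all B2D+FF libraries lie below it.

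The stretches before the annotated starts of these neighbours are shown because only one of the pair passed the test. They run from 250 to 51 bases before the start (RefSeq, GRCm38.p6, minus strand), at chr11:110095988-110096187 for Abca8a and chr11:109995896-109996095 for Abca8b, all in lower case because none of the motifs searched fell in them.
Abca8a: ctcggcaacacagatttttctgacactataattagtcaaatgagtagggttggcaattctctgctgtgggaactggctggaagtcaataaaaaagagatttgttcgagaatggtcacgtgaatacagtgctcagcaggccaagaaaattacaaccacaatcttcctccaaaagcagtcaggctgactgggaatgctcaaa
Abca8b: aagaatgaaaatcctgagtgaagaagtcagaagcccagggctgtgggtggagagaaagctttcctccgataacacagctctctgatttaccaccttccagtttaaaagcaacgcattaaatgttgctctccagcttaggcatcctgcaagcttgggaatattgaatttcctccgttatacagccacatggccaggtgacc

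A total of 7 motifs were searched on both strands in the 250 bases before each start. They were the antioxidant response element (TGACNNNGC, in 10.2% of 32851 promoters), a GATA motif (AGATAA, 9.99%), a STAT5 motif (TTCNNNGAA, 7.02%), a nuclear receptor half-site (AGGTCA, 14.0%), a cAMP response element (TGACGTCA, 1.55%), a C/EBP-ATF element (TGATGNAA, 3.45%) and the CCAAT box (33.8%). A total of 34 members had a RefSeq promoter, in 39 rows. The shares among member promoters were 10.3%, 7.69%, 2.56%, 15.4%, 5.13%, 2.56% and 30.8% in the same order.

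Of the other 3 genes of the chromosome 11 run, Abca6 and Abca5 were tested and neither passed. Abca6, the most abundant subfamily A gene, was at 51.9 FPKM ± 5.69 (SD, n = 5) in Ctrl and 59.6 ± 8.27 (n = 5) in the B2D libraries (adjusted p = 0.412). Abca5 was at 1.23 FPKM or less in every library. Abca9 entered no test, with means of 0.474 FPKM in Ctrl, 0.372 in B2D, 0.399 in Ctrl+FF and 0.273 in B2D+FF.

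Elsewhere in subfamily A, Abca1, which hands cholesterol and phospholipid to apolipoprotein A-I, was at 14.4 FPKM ± 2.56 (SD, n = 5) under control diet and 17.8 ± 3.75 (n = 5) in B2D (adjusted p = 0.349), and at 18.5 ± 1.06 (n = 4) in Ctrl+FF and 16.0 ± 2.21 (n = 4) in B2D+FF (adjusted p = 0.286). Abca2, a lysosomal lipid transporter, did not overlap between the groups with fenofibrate, at 2.45, 2.73, 2.19 and 3.08 FPKM in Ctrl+FF, against 1.98, 2.08, 1.70 and 1.79 in B2D+FF, with an adjusted p of 0.086 that became 0.0393 under array weights. Abca3, known for surfactant lipid transport in lung, was named after its values were seen: it was at 4.60, 3.13, 3.35, 3.62 and 4.99 FPKM in Ctrl and 6.46, 5.87, 6.24, 5.75 and 4.57 in B2D (log2 difference 0.47, adjusted p = 0.0748). It crossed the threshold in a fit of all 4 groups (adjusted p = 0.0161), with voom on reads (0.048) and without Ctrl replicate 5 (0.0481), while with fenofibrate its means were 6.27 and 6.17. Of the 8 subfamily A genes tested, 6 had a positive and 2 a negative difference without fenofibrate, and 3 and 5 with it.

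In subfamily B the mitochondrial transporter Abcb10, which sits in the inner membrane and has been tied to heme synthesis in erythroid cells, was lower in B2D. It was at 6.83, 8.03, 5.79, 6.72 and 7.35 FPKM in Ctrl and 4.49, 3.47, 4.60, 4.51 and 4.98 in B2D. No B2D library reached the lowest Ctrl library. The mean fell by 36.5%, a log2 difference of -0.55 ± 0.11 (SE, adjusted p = 0.0205). That call was lost when Ctrl replicate 2 (adjusted p = 0.0657) or Ctrl replicate 4 (0.0572) was left out, and with no filter (0.0555). With fenofibrate Abcb10 was at 4.49, 4.40, 5.08 and 4.14 FPKM in Ctrl+FF, against 2.82, 4.02, 4.10 and 3.44 in B2D+FF. Those groups did not overlap either, with a ratio of means of 0.794, but the adjusted p was 0.18. Between the tables the diet effects differed by 0.28 (95% interval -0.03 to 0.60, adjusted p = 0.462).

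The erythroid marker Alas2, the first enzyme of erythroid heme synthesis, moved beside Abcb10. It stood at 20.9 FPKM ± 3.82 (SD, n = 5) in Ctrl, with 7.97 ± 4.05 (n = 5) in B2D (adjusted p = 0.0114), and at 15.1 ± 1.2 (n = 4) in Ctrl+FF and 5.26 ± 0.768 (n = 4) in B2D+FF (adjusted p = 0.000918). It was the only 1 of 3 erythroid markers tested that passed in either table, and the summed level of the 6 markers overlapped between diets, at 168 to 224 FPKM in Ctrl, 83.1 to 359 in B2D, 372 to 532 in Ctrl+FF and 249 to 591 in B2D+FF. In a list of 12 mitochondrial heme and iron-sulfur genes, 1 passed without fenofibrate, Alas1, at 291 FPKM ± 21.9 (SD, n = 5) in Ctrl against 164 ± 34.7 (n = 5) in B2D (adjusted p = 0.0143). Another, the mitochondrial iron importer Slc25a37, was lower with fenofibrate (8.26 and 5.39 FPKM, adjusted p = 0.0182). Most of the 12 went the other way there, with 3 negative and 9 positive differences (list median 0.08), against 8 and 4 without fenofibrate. Alas1 was at 173 FPKM ± 33.9 (SD, n = 4) in Ctrl+FF and 202 ± 37.2 (n = 4) in B2D+FF, and did not pass. The part of blood cells in the Abcb10 difference was not tested.

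Abcb8 is another mitochondrial inner-membrane transporter of the subfamily. With fenofibrate it was at 8.94, 9.15, 8.22 and 8.34 FPKM in Ctrl+FF, against 9.89, 9.20, 10.1 and 10.7 in B2D+FF. The groups did not overlap but the difference did not pass the test (adjusted p = 0.204). Abcb9, a lysosomal peptide transporter, did not overlap in the other direction, at 0.773, 0.705, 0.647 and 0.716 FPKM in Ctrl+FF, against 0.556, 0.579, 0.647 and 0.366 in B2D+FF (adjusted p = 0.328). Those 2 values of 0.647 were the closest pair. Abcb4, the canalicular phosphatidylcholine translocator, was the most abundant of the subfamily at 61.6 FPKM ± 9.83 (SD, n = 5) in Ctrl against 70.6 ± 7.78 (n = 5) in B2D, and at 45.7 ± 4.43 (n = 4) in Ctrl+FF and 51.5 ± 9.53 (n = 4) in B2D+FF (adjusted p = 0.415 and 0.562). The multidrug transporter pair Abcb1a and Abcb1b was low: Abcb1a means were 0.470, 0.618, 0.813 and 1.19 FPKM in the order Ctrl, B2D, Ctrl+FF and B2D+FF, and Abcb1b was at 0.330 FPKM or less in every library. Of the 50-base stretches of Abcb1a, 16.3% also occur in Abcb1b, so their split is uncertain.

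Subfamily C carried the largest summed level and no member of it passed the test. Abcc2, the canalicular exporter of conjugated bilirubin, was at 69.2 FPKM ± 7.32 (SD, n = 5) in Ctrl against 73.4 ± 14.5 (n = 5) in B2D (adjusted p = 0.83), and at 73.6 ± 4.40 (n = 4) and 69.0 ± 10.7 (n = 4) with fenofibrate (adjusted p = 0.674). Abcc3, its basolateral counterpart, was at 42.3 ± 10.4 (SD, n = 5) and 47.9 ± 20.05 (n = 5) without fenofibrate and at 95.9 ± 8.52 (n = 4) and 110 ± 28.9 (n = 4) with it. Neither diet difference passed (adjusted p = 0.81 and 0.639). Abcc6, known for ATP release and for preventing ectopic calcification, was at 24.9 and 20.8 FPKM in Ctrl and B2D and at 20.1 and 15.8 in Ctrl+FF and B2D+FF, in both cases with overlap (adjusted p = 0.324 and 0.245).

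Abcc4, the basolateral exporter of bile acid conjugates and cyclic nucleotides, had the largest difference of the subfamily. It was at 1.70, 1.99, 1.23 and 3.07 FPKM in Ctrl+FF, against 3.90, 3.82, 3.35 and 7.48 in B2D+FF. All 4 B2D+FF libraries were above all 4 Ctrl+FF libraries, and the fourth of B2D+FF stood well above the rest. The mean was 2.32-fold higher. The difference in log2(FPKM + 1), shrunk by the added 1 at these levels, was 0.89 ± 0.23 (SE) and missed the threshold at an adjusted p of 0.0647. It passed in 3 alternatives, array weights (adjusted p = 0.0346), voom on reads (0.0276) and a fit of all 4 groups (0.0103), and when Ctrl+FF replicate 4 was left out (0.0456). Without fenofibrate it was at 0.299, 0.333, 0.206, 0.276 and 0.314 FPKM in Ctrl and 0.502, 0.523, 0.205, 0.468 and 0.370 in B2D, too low to be tested in that table alone. Across both sets of mice the diet difference was larger with fenofibrate by 0.76 (95% interval 0.25 to 1.27), with an adjusted p of 0.208. It entered that fit only through the fenofibrate groups, where it is high.

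The stretches before both annotated starts of Abcc4 are shown for their antioxidant response element, in capitals (RefSeq, GRCm38.p6, minus strand, the last 80 bases before each start). The inner start is at chr14:118676932-118677011 and the outer at chr14:118706220-118706299.
Abcc4 inner start: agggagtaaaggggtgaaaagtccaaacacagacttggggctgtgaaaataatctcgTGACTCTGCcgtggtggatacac
Abcc4 outer start: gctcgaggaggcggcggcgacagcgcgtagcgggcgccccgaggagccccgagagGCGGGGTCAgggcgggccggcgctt

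Of 39 member promoter rows, 4 held this motif, the others being those of Abcc2 and 1 start of Abcc10. That is 10.3% of the rows, beside 10.2% of all promoters. A match of these letters is a description of the sequence and shows no binding. A list of 14 genes known as targets of CAR or NRF2, regulators under which Abcc4 has been placed, was chosen with earlier results known. With fenofibrate 4 of them were called higher, beside 2.24% of all genes. Cyp2b10 was at 1.60 FPKM in Ctrl+FF, against 43.7 in B2D+FF (adjusted p = 0.000356), and Nqo1 at 7.65 and 12.1 (adjusted p = 0.0133). The part of these regulators in the Abcc4 difference was not tested. Without fenofibrate the 1 gene called of 12 tested was Cyp2b10, at 0.0770 FPKM in Ctrl and 3.72 in B2D, which passed the filter on low values only through B2D.

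Subfamilies D and E held no called member. Abcd4, which brings cobalamin out of lysosomes, was at 1.5, 1.94, 1.26 and 1.66 FPKM in the order Ctrl, B2D, Ctrl+FF and B2D+FF. It did not pass in either table (adjusted p = 0.441 and 0.28), and neither did any of 8 peroxisomal partners or 7 cobalamin genes. Abce1, which splits ribosomes into subunits, was at 13.8 FPKM ± 2.43 (SD, n = 5) and 16.3 ± 2.80 (n = 5) without fenofibrate and 10.4 ± 0.689 (n = 4) and 13.2 ± 3.08 (n = 4) with it (adjusted p = 0.404 and 0.299).

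In subfamily F, Abcf3, a cytosolic ATPase linked to translation, was called higher with fenofibrate. It was at 10.5, 9.94, 9.43 and 10.3 FPKM in Ctrl+FF, against 13.2, 12.0, 13.1 and 14.2 in B2D+FF. The groups stood apart with little spread within each, and the mean was 1.31-fold higher, a log2 difference of 0.36 ± 0.08 (SE, adjusted p = 0.0360). The call was marginal: it remained only without B2D+FF replicate 2, and leaving out any other single library gave adjusted p-values up to 0.112. Without fenofibrate Abcf3 was at 12.2, 13.9, 14.9, 13.1 and 11.9 FPKM in Ctrl and 15.1, 13.6, 12.7, 15.0 and 15.8 in B2D, overlapping (log2 difference 0.12, adjusted p = 0.526). The diet effect differed between tables by 0.24 (95% interval -0.02 to 0.49, adjusted p = 0.441). Abcf1 and Abcf2 had differences of 0.17 and 0.25 with fenofibrate and did not pass (adjusted p = 0.429 and 0.21). None of 6 ribosome recycling and translation stress genes passed in either table.

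In subfamily G, Abcg2, a canalicular exporter of drugs, porphyrins and urate that is also known to carry riboflavin into milk, had a lower mean under the deficient diet in both tables without passing the test in either. It was at 11.6, 15.2, 11.7, 14.2 and 18.1 FPKM in Ctrl and 7.25, 8.26, 13.0, 12.5 and 8.28 in B2D, with overlap (log2 difference -0.50, 95% interval -0.88 to -0.12, adjusted p = 0.158). It was at 25.5, 25.0, 24.3 and 21.2 in Ctrl+FF and 20.3, 19.0, 17.7 and 22.5 in B2D+FF (-0.26, interval -0.48 to -0.04, adjusted p = 0.165). Abcg1, which exports cholesterol to HDL, was at 1.09 and 1.12 FPKM without fenofibrate and 1.69 and 1.14 with it (adjusted p = 0.95 and 0.114). Abcg3 had a mean below 0.5 FPKM in every group.

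**Figure D4:**
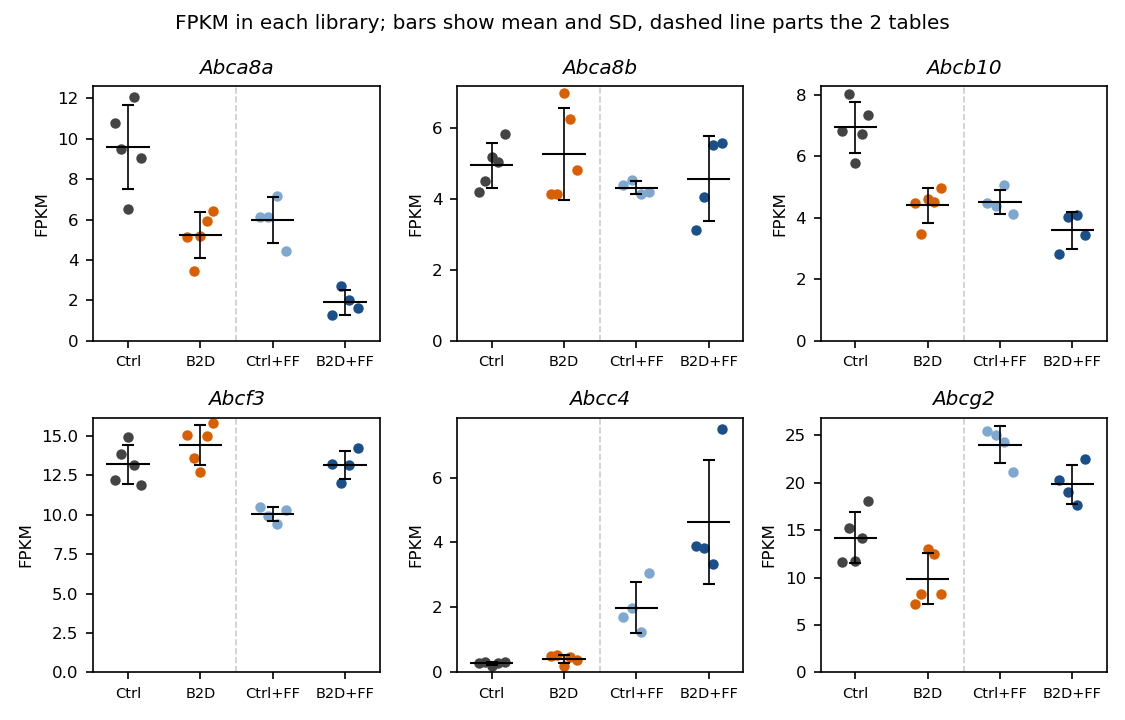
FPKM of 6 members in each library, with group mean and SD; the dashed line parts the 2 tables. Abca8a is lower in B2D and in B2D+FF than in its control, Abcb10 does not overlap between diets in either table, Abcf3 and Abcc4 do not overlap with fenofibrate, and Abca8b and Abcg2 overlap in both.

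Counted by whether groups overlapped, 2 members without fenofibrate lay wholly lower in B2D, Abca8a and Abcb10, beside 2.89% of all genes, and none wholly higher, beside 2.08%. With fenofibrate 4 of 28 lay wholly lower, Abca2, Abca8a, Abcb9 and Abcb10, beside 6.44% of all genes, and 4 wholly higher, Abcb8, Abcc4 and Abcf3 among them, beside 7.82%. The diet effect with fenofibrate minus that without it passed the test for 0 members (limma), beside 0.228% of all genes, while 5 members, Abca1, Abca2, Abca3, Abcc4 and Abcg1, were at an unadjusted p below 0.05, beside 11.9% of all genes. Of these, Abcc4 entered the fit only through the fenofibrate groups, where it is high. Leaving out single libraries or using voom on reads also gave 0 members past the test.

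The uptake and exchange carriers that hepatocytes use beside the family were followed by a list of their own, chosen with earlier results of these data known. Of 8 SLC partners tested, 2 were called lower and 1 higher without fenofibrate, beside 1.94% and 0.769% of all genes. With it 1 was called lower and 1 higher, beside 2.21% and 2.24%. Slco1a4 was called higher in B2D (14.5 and 52.4 FPKM, adjusted p = 0.00557) and in B2D+FF (1.46 and 12.9, adjusted p = 0.000356), Slc22a7 lower in both (5.97 and 1.43, adjusted p = 0.0156, and 1.22 and 0.276, adjusted p = 0.0222), and Slco1a1 lower without fenofibrate (93.2 and 22.3, adjusted p = 0.0281). With fenofibrate Slc22a7 passed the filter on low values only through Ctrl+FF, where it is high, so that call adds no support to the first. Slco genes encode organic anion uptake carriers and Slc22a7 an organic anion transporter. Of the 11 sterol efflux genes 1 was called, Npc1, higher with fenofibrate (9.65 and 13.2 FPKM, adjusted p = 0.0312), beside 2.24% of all genes. None of 15 transcriptional regulators was called, Nr1i3 and Nfe2l2 among them. Of the ABC genes under other names, Tap2, a subunit of the peptide transporter of antigen presentation, was lower with fenofibrate (2.23 and 1.38 FPKM, adjusted p = 0.0478). Genes known for male-biased expression in mouse liver were called lower in 9 of 10 tested without fenofibrate, beside 1.94% of all genes. With it 6 of 9 were called lower, beside 2.21%. Slco1a1, given above, was among the 9, and the list was chosen with earlier results of these data known. Of 10 female-biased genes only 4 and 3 passed the filter on low values, some of them, such as Cux2 (0.0417 FPKM in Ctrl and 1.82 in B2D), only through the group where they are high, so their calls are not counted here.

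Among the cell markers, 9 hepatocyte genes were tested and 0 were called without fenofibrate, while Serpina1c was lower and Pck1 and Ass1 higher with it. Of 7 Kupffer cell markers, C1qa and Clec4f were lower in B2D (adjusted p = 0.0275 and 0.0412), and the summed level ran from 97.9 to 124 FPKM in Ctrl and from 77.0 to 109 in B2D. With fenofibrate no Kupffer cell marker passed, and the sums overlapped at 79.1 to 135 and 52.2 to 134. Of 7 endothelial markers 1 passed with fenofibrate, Lyve1, which was higher, the other 6 had negative differences that did not pass (list median -0.12), and their sums overlapped at 32.8 to 39.9 FPKM in Ctrl+FF and 30.7 to 43.9 in B2D+FF. Retnlg alone of 3 neutrophil markers tested passed, also higher, with sums over 7 markers of 2.20 to 3.73 FPKM in Ctrl+FF and 3.02 to 13.6 in B2D+FF, where Ly6g and Camp had 0 reads. No cholangiocyte, stellate or lymphocyte marker passed. All 7 stellate markers were tested, but of 7 cholangiocyte markers only 4 without fenofibrate and 3 with it. Of 8 lymphocyte markers 2 were tested without fenofibrate and 0 with it, so a change there could not be seen. The part of these cell types in the differences of Abca8a, Abcb10 and Abcf3 was not tested.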

How the data were processed

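Liver mRNA was sequenced in 18 libraries. The authors deposited FPKM tables of the 2 experiments, and the submitters' processing notes name STAR, featureCounts, DESeq2 and mm10, whose versions and settings are not given in the sources used here. Whole reads were recovered from the deposited FPKM values, and these served for depth and for one alternative. All values (100%) lay within 0.01 of a whole read or, at higher read numbers, within a tolerance that grew with the reads. For the most abundant genes that check could not fail. Groups came from the labels. FPKM with a pseudocount of 1 was tested as log2 by limma 3.58.1 (R 4.3.3) with an abundance trend, after keeping genes with a mean of at least 0.5 FPKM in the fit, each table alone and both tables together for the difference of diet effects, with Benjamini-Hochberg adjustment over all genes and a threshold of 0.05. The script was tested on simulated data. The members, lists and motifs were chosen with earlier results of these data known. Members named with values are those past the threshold or without overlap, the 3 most abundant of each subfamily and the paralog pairs Abca8a with Abca8b and Abcb1a with Abcb1b; Abca3 was added after its values were seen. Values of 2 members are not reported here, although they enter the counts. Replicates are separate samples of the labels, numbered in accession order. Alternatives were another pseudocount, filters, upper-quartile and quantile scaling, array weights, voom on reads, 1 fit of 4 groups and leaving out each library.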

Additional observations from a re-analysis of the deposited data

Results flagged for a closer look

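In 8 of the 100 sets of group values of 26 tested members, 1 library stood far from the others of its group (chance gives about 1 in 20 such sets, or 5 here). The high values were Abca6 at 39.9 FPKM in Ctrl+FF replicate 4 (others 34.6 to 34.9), Abcc3 at 82.5 in B2D replicate 4 (others 32.6 to 45.1), Abcc4 at 7.48 in B2D+FF replicate 4 (others 3.35 to 3.90), Abcc9 at 5.86 in B2D replicate 3 (others 3.28 to 4.02), Abce1 at 21.2 in B2D replicate 3 (others 14.2 to 15.8) and Abcg1 at 1.46 in B2D+FF replicate 1 (others 1.02 to 1.07). The low values were Abcc2 at 67.1 in Ctrl+FF replicate 3 (others 75.5 to 76.0) and Abcc6 at 15.8 in B2D replicate 3 (others 21.0 to 22.9). None of these genes was called by the test.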

How the results depend on the processing

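The members called without fenofibrate numbered 0 with no filter and 6 at an unadjusted p below 0.05, and 0 to 2 when single libraries were left out, against 2. With fenofibrate they numbered 1 with a mean of at least 5 FPKM, where Abca8a is no longer tested, 4 with array weights and 9 unadjusted, and 1 to 2 without single libraries, against 2. The difference of diet effects had 5 members unadjusted against 0. Members without overlap numbered 1 under upper-quartile and under quantile scaling, where Abca8a overlaps, against 2 without fenofibrate (2 to 3 without single libraries). With fenofibrate they numbered 3 with a mean of at least 5 FPKM, against 8 (8 to 12 without single libraries). The cause was not tested. No called member changed direction in any alternative. Over all genes, upper-quartile scaling gave 366 lower and 223 higher calls with fenofibrate, against 263 and 266, and voom on reads 377 and 365. No paired analysis was possible because the replicate numbers follow accession order and mark no shared animal or day. With 4 or 5 libraries a group, a missed threshold does not show that levels were equal, and members near 0.5 FPKM rest on few reads.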
